A study of Mus musculus with 24 samples.

Results

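Within 1000 bp of an end of the Sox9 gene, the Sox9 antibody gave peaks in 2 of 4 libraries 48 h after kidney injury and in 1 of 4 libraries 10 days after it. Each of these peaks stood at the lowest height in its list. Over all genes, 7.64% of pairs of a gene and a library had a Sox9 end peak at 48 h and 12.3% at 10 days. The SoxE and SoxD genes were described here: 6 of the 21887 protein-coding genes of the mm10 annotation, chosen by family. SoxE comprises Sox8, Sox9 and Sox10, and SoxD comprises Sox5, Sox6 and Sox13. A peak was counted at a gene end when its summit lay within 1000 bp of either end of the RefSeq gene. It was counted in the window when its summit lay in the gene body or in the 10000 bp on each side.

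Sox proteins bind DNA through a high-mobility-group box that sits in the minor groove and bends the helix. SoxE proteins carry an activation domain and act as master regulators of lineages: Sox9 in cartilage, testis and regenerating kidney tubule, Sox10 in neural crest, glia and pigment cells, and Sox8 beside both in overlapping tissues. SoxD proteins have no activation domain of their own; they dimerise through a coiled coil and, in cartilage, Sox5 and Sox6 help Sox9 to activate matrix genes. SoxE genes are known to be regulated by their own products and by each other in several tissues, which is the question put to the Sox9 peaks here.

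CUT&RUN, in which an antibody directs a nuclease to cut around the bound protein, had been run on kidney cells of male mice 9 to 12 weeks old that carried Sox9IRES-CreERT2/+ and R26RtdT/+. All groups shared this genotype, bilateral renal ischaemia-reperfusion injury and tamoxifen at injury; no uninjured group was included. The red cells were sorted from cortex and outer medulla 48 h or 10 days later, with 4 biological replicates at each time, and each pellet was split between the Sox9 antibody, an H3K4me3 antibody as positive control and an input. Because Cre sits at the Sox9 locus, the colour marks cells with Sox9 activity around the injury and their progeny, and 1 Sox9 allele of each animal is the one that carries the Cre cassette. Times were taken from the sample titles, since the cell type label names day 10 throughout. H3K4me3, trimethylation of lysine on histone H3, marks active promoters.

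The 16 antibody libraries had 1 peak list each, of 7706 (Sox9, 48 h replicate 1) to 88496 peaks (H3K4me3, 10-day replicate 1). Read depth is unknown, and list length differed several-fold, so window counts were also given per 10000 peaks of the list. Peak heights solved from the deposited fold and p-value were nearly all whole multiples of 1 list-specific unit, called a step; in every list most peaks were 1 step high. Whether 1 step is 1 DNA fragment was not tested. The positive control was close to the all-gene share: 10 genes active in most cells had an H3K4me3 peak at an end in 18.8% of gene and library pairs, against 17.3% for all genes, with Gapdh at 4 and Actb at 0 of 8 libraries. For 9 tubule genes the H3K4me3 share was 19.4%, and for 4 genes of injured tubule 3.12%. In the wider windows the tubule genes had H3K4me3 in 88.9% of pairs and those of injured tubule in 68.8%, against 59.9% for all genes. A window grows with the length of its gene, and the part of length in the window shares was not tested. Epcam, an epithelial adhesion gene, was the tubule gene with H3K4me3 at an end in the most libraries, 4 of 8. The share was 16.7% for 3 endothelial genes, 18.8% for 2 stromal genes and 6.25% for 2 immune genes at the ends, and 75%, 81.2% and 56.2% in the windows.

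The 3 promoters below show the range of sequence at these genes. They are the 250 bases before a transcription start from RefSeq (GRCm38.p6, the mm10 assembly), all on the minus strand and written 5′ to 3′. The first carried a Sox9 peak, and its capitals mark the bases under that peak. The second had Sox9 peaks within 1000 bp of its start in the most libraries among the listed starts of Sox8, Sox5, Sox6 and Sox13. It has no capitals, and no start was listed for Sox9 or Sox10. The third, low in G and C, was touched at its last bases by an H3K4me3 peak whose summit lay inside the gene; its capitals mark matches to ACAAT, the core letters of Sox binding sites, on either strand.
Sox13 promoter, chr1:133424213-133424462: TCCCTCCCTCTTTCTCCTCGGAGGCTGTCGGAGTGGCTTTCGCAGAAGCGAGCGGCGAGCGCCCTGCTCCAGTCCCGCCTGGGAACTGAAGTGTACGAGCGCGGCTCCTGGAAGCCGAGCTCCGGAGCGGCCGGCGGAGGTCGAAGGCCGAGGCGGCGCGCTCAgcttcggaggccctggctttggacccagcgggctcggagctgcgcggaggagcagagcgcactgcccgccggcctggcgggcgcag
Sox8 promoter, chr17:25570687-25570936: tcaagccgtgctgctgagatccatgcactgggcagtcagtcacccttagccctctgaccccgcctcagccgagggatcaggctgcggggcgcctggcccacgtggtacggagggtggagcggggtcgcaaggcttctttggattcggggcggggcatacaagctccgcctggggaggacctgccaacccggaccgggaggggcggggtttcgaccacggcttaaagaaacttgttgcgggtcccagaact
Sox6 promoter, chr7:115801610-115801859: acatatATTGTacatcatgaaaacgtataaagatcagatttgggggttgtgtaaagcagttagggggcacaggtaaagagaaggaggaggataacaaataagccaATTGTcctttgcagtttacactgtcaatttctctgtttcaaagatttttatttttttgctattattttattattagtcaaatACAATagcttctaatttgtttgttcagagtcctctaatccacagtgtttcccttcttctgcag

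The Sox13 promoter was 72.4% G and C with 31 CpG dinucleotides, and the Sox8 promoter 65.6% with 18. Over 32851 promoters the median was 52.4% (quartiles 45.2% and 61.2%). Neither held ACAAT or ACAAAG, another Sox core, on either strand. Of all promoters of this length 27.7% held ACAAT and 16.5% held ACAAAG; matches to the 2 motifs cannot overlap. The Sox6 promoter shown was 34% G and C with 3 ACAAT matches. The other 5 Sox6 starts in the table had promoters of 41.6% to 60.8% G and C with 1 to 4 matches each, and the Sox5 start had 39.6% and 1 match. The letters say nothing of binding, and the table held these 4 genes.

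The Sox9 gene (chr11:112782210-112787757, 5548 bp) encodes the factor the antibody recognises. In its window the Sox9 libraries held 0, 1, 0 and 1 peaks at 48 h (replicates 1 to 4) and 1, 0, 2 and 1 at 10 days. H3K4me3 held 0, 0, 0 and 1 at 48 h and 1, 0, 0 and 0 at 10 days. The Sox9 antibody thus had a window peak in 5 of 8 libraries and H3K4me3 in 2 of 8, and the values of both times overlapped. Over all genes, 43.9% of gene and library pairs had a window peak for Sox9 and 59.9% for H3K4me3.

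At the ends of the Sox9 gene the recurrent place was a stretch of 288 bp, chr11:112782317-112782604, that lies 107 to 394 bp inside the lower-coordinate end. It held peaks of 3 libraries: Sox9 at 10 days replicate 3 (summit 206 bp inside), Sox9 at 48 h replicate 2 (306 bp inside) and H3K4me3 at 48 h replicate 4 (260 bp inside). The Sox9 antibody therefore met its own gene at this place once at each time, in different replicates. Elsewhere the Sox9 48 h replicate 4 peak lay 169 bp inside the upper end, and the second peak of Sox9 10-day replicate 3 lay 853 bp beyond it. A second shared place of 168 bp, chr11:112779386-112779553, outside the lower end, held a Sox9 peak of 10-day replicate 4 (summit 2748 bp outside) and an H3K4me3 peak of 10-day replicate 1 (2732 bp outside). The last peak, of Sox9 10-day replicate 1, lay 5409 bp outside that end. All 6 Sox9 and both H3K4me3 peaks of this window were 1 step high.

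Sox8 (chr17:25565893-25570686, minus strand) is the SoxE gene that works beside Sox9 in testis and cartilage. Sox9 peaks reached an end of it in 1 library at 48 h and in 3 libraries at 10 days, 4 of 8 in all, more libraries than at any other member. Of the later libraries, replicates 1 and 4 had the longest Sox9 lists, 85415 and 39691 peaks. In them 20.7% and 13.8% of all genes had a Sox9 end peak. The longest 48 h list, of replicate 2, held 26520 peaks, with 11.3% of all genes. The part of list length in the Sox8 counts was not tested. The share of all genes with 4 or more of 8 libraries was 1.58%, and that with 3 or more at 10 days and at most 1 at 48 h was 1.03%. For whole genes, 3 at 10 days and 0 at 48 h was met by 0.567% of genes for Sox9 and by no member. Taken alone, the Sox8 start had Sox9 in 3 libraries of the later time and 0 of the earlier. Exactly this pattern was seen at 0.199% of single gene ends. The plan counted both ends together and this end was singled out for its counts, so the share is a description only. The rule for a gene particular to a time asked for 4 of 4 against 0 of 4, which 0.0228% of genes met for Sox9 and 0.238% for H3K4me3; no member met it for either antibody.

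The 3 Sox9 peaks at the Sox8 start did not lie on each other. Their summits were 620 bp (10-day replicate 3), 309 bp (replicate 4) and 164 bp (replicate 1) inside the gene. H3K4me3 peaks stood 468 bp inside (10-day replicate 2) and 798 bp beyond the start (10-day replicate 1). None of these 5 peaks overlapped another. At the lower end a Sox9 peak of 48 h replicate 4 lay 951 bp outside and an H3K4me3 peak of 10-day replicate 1 lay 742 bp outside. Window counts for Sox9 were 0, 0, 1 and 2 at 48 h and 1, 0, 1 and 2 at 10 days, and for H3K4me3 0, 1, 2 and 0, then 4, 1, 1 and 1. The tallest peak, an H3K4me3 peak of 3 steps in 10-day replicate 1, lay 8469 bp beyond the start, at the end of the neighbouring gene Lmf1. The fold of the 3 Sox9 peaks at the start lay between the 2.27th and the 8.54th percentile of their lists. Among peaks of 1 step a low fold means a high local background.

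Sox10 (chr15:79154913-79164490, 9578 bp) is the SoxE gene of neural crest and glia, cell types the sort was not aimed at. Sox9 end peaks came from 1 library of the 48 h group and 2 of the 10-day group, and H3K4me3 end peaks from 1 library of each. Its window held Sox9 peaks in 7 of 8 libraries, 0, 1, 1 and 1 at 48 h and 3, 1, 2 and 2 at 10 days. Over all genes, 43.9% of gene and library pairs had a Sox9 window peak. H3K4me3 counts were 5, 1, 0 and 1, then 3, 1, 3 and 1, and the 5 of 48 h replicate 1 stood above the others.

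The most shared place of any SoxE gene lay near the upper end of Sox10, a stretch of 235 bp (chr15:79163391-79163625). It held peaks of 4 libraries: H3K4me3 at 48 h replicates 4 and 2 (1 step each), Sox9 at 48 h replicate 3 (2 steps) and H3K4me3 at 10 days replicate 2 (2 steps). The summits were 1041, 1006, 984 and 912 bp inside the end, so that the 1000 bp limit counted the last 2 and left out the first 2. Further Sox9 peaks were 327 bp inside (10-day replicate 1) and 360 bp beyond the upper end (10-day replicate 3), and an H3K4me3 peak of 48 h replicate 1 lay 198 bp outside the lower end. In the gene body a stretch of 180 bp, chr15:79156466-79156645, held Sox9 10-day replicate 4 and H3K4me3 10-day and 48 h replicates 1. A neighbouring 243 bp, chr15:79156138-79156380, held H3K4me3 10-day replicate 3 and Sox9 48 h replicate 4. Beyond the upper end, chr15:79167693-79167872 held H3K4me3 10-day replicate 1 (2 steps) and Sox9 10-day replicate 3. Another H3K4me3 peak of 2 steps, of 48 h replicate 1, lay inside the neighbour Polr2f, 5243 bp outside the lower end.

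**Figure D1:**
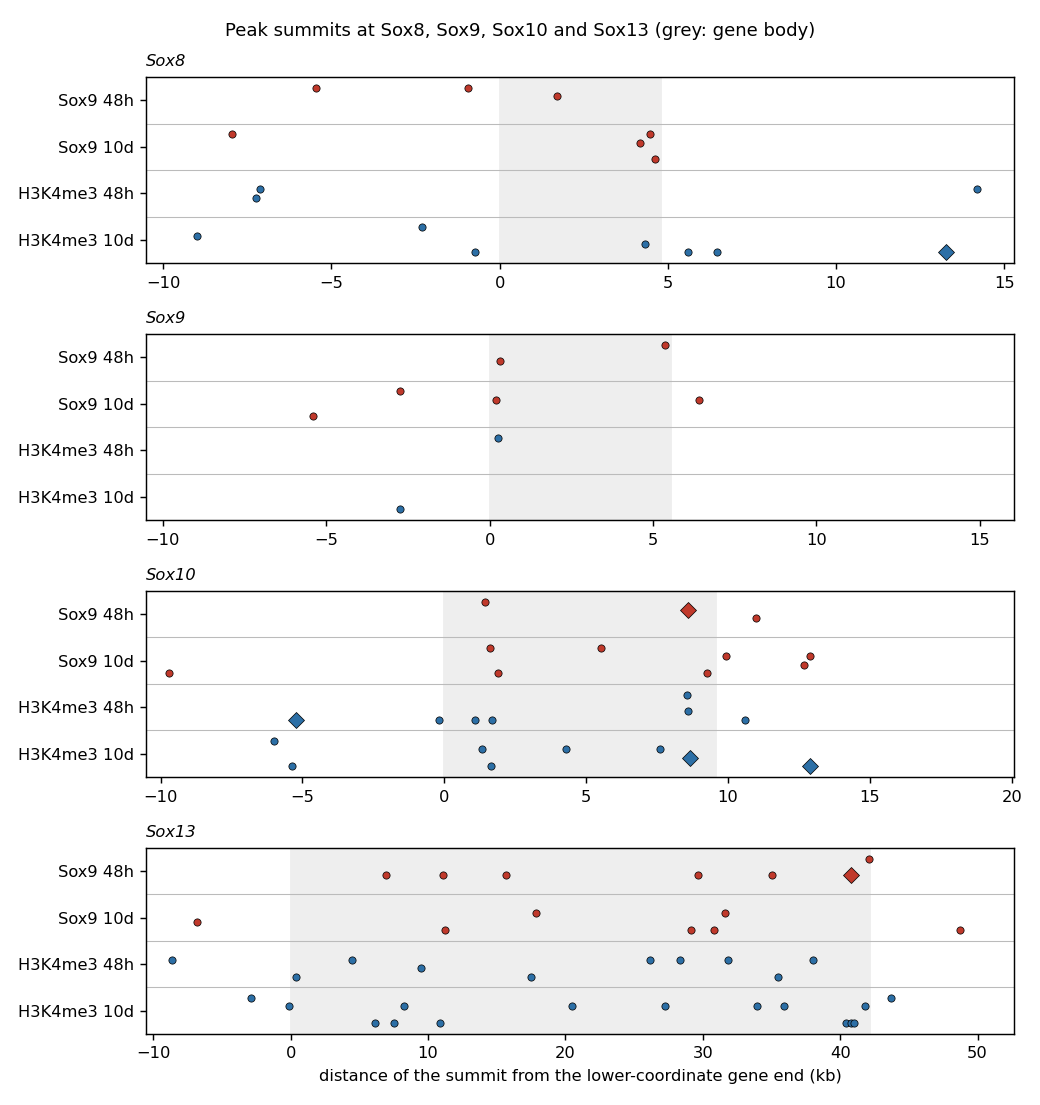
Peak summits along Sox8, Sox9, Sox10 and Sox13, with distance from the lower-coordinate gene end in kb on the horizontal axis, 1 row per antibody and time, and the gene body in grey. Red marks Sox9 and blue H3K4me3; each point is 1 peak, diamonds are peaks of 2 or more steps, and height within a row separates the 4 replicates. A run of 3 red points of the 10-day row crowds the right edge of Sox8, and points of both antibodies meet inside the right edge of Sox10.

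Sox13 (chr1:133382300-133424459, minus strand, 42160 bp) is the SoxD gene known for a role in T cells and for binding Tcf factors. Sox9 reached an end of it in a single library, 48 h replicate 4. That peak had its summit 88 bp inside the upper end and covered 164 of the 250 bases of the promoter printed above, all in capitals there. H3K4me3 10-day replicate 3 had a peak 321 bp inside the same end, which reached into the promoter, and another 145 bp outside the lower end. H3K4me3 48 h replicate 1 lay 400 bp inside the lower end. A Sox9 peak of 2 steps in 48 h replicate 2 lay 1344 bp inside the upper end, in a place shared with H3K4me3 10-day replicate 1. Window counts were 0, 6, 0 and 1 for Sox9 at 48 h and 4, 1, 2 and 0 at 10 days. For H3K4me3 they were 3, 1, 6 and 0 at 48 h and 6, 0, 7 and 2 at 10 days. Each antibody had a library at 0 at each time, and the times overlapped.

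Sox5 (chr6:143828425-144782287, 953863 bp) is a partner of Sox9 in cartilage. Its ends held no peak in the 8 Sox9 libraries. H3K4me3 was at the upper end in 3 of the later libraries and 0 of the earlier, a pattern of 0.809% of single gene ends and, counted over both ends, of 1.95% of genes. With at most 1 earlier library allowed it was 4.41% of genes. The single-end share describes an end singled out for its counts. The summits of 10-day replicates 1, 3 and 4 lay 383, 381 and 338 bp inside the end, and their peaks overlapped within 289 bp (chr6:144781712-144782000). The peak of replicate 1 was 2 steps high, and that library held a second peak of 2 steps 769 bp inside. The replicate 1 list is the longest of all, and the start in the promoter table lies elsewhere in the gene.

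Along the Sox5 window the Sox9 counts were 1, 9, 7 and 6 at 48 h and 31, 4, 6 and 12 at 10 days. The H3K4me3 counts were 11, 15, 18 and 8, then 53, 10, 27 and 11. The highest of each antibody came from 10-day replicate 1, the pellet with the longest lists. The peaks of 2 or more steps were 2 of 76 for Sox9, both of 10-day replicate 4 and 86195 and 755339 bp from the lower end, and 9 of 153 for H3K4me3, the tallest (4 steps, 10-day replicate 3) 7906 bp outside the lower end. The stretches chr6:143956318-143956577 and chr6:144594873-144595174 each held peaks of 4 libraries, 1 of Sox9 and 3 of H3K4me3.

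Sox6 (chr7:115470872-116040776, 569905 bp), the other SoxD partner of Sox9 in cartilage, had neither Sox9 nor H3K4me3 at its ends in any of the 16 libraries; the same held for 21.5% of all genes, and 31.7% had no H3K4me3 there in 8 libraries. Sox9 counts in its window were 1, 6, 4 and 4 at 48 h and 9, 3, 2 and 4 at 10 days, and H3K4me3 counts 4, 6, 7 and 2, then 11, 1, 13 and 4. All 33 Sox9 peaks were 1 step high, and 1 of 48 H3K4me3 peaks was taller, a 2-step peak of 10-day replicate 1 lying 45957 bp from the lower end. The stretch chr7:115817668-115818338 held Sox9 of 10-day replicates 2 and 3 and H3K4me3 of 48 h replicate 3. The H3K4me3 peak at the edge of the Sox6 promoter printed above came from 48 h replicate 1, and a Sox9 peak of 48 h replicate 2 lay within 1000 bp of another start (chr7, position 116031047).

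**Figure D2:**
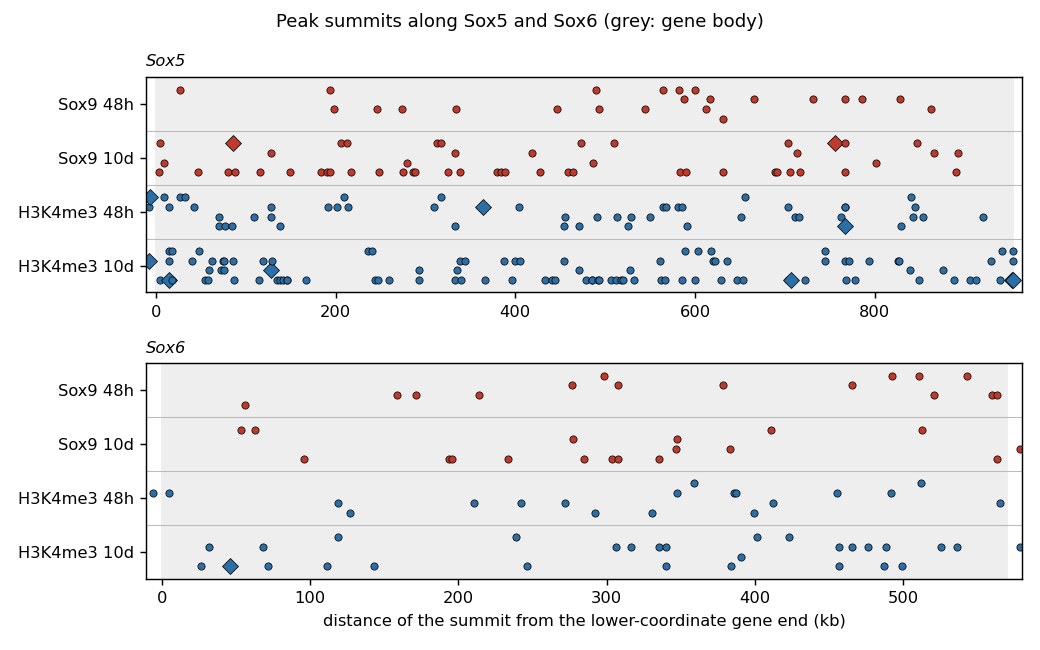
Peak summits along Sox5 and Sox6, with distance from the lower-coordinate gene end in kb, 1 row per antibody and time, gene body in grey. Red is Sox9 and blue H3K4me3, each point is 1 peak and diamonds have 2 or more steps; summits spread over the whole of both genes, and blue diamonds sit at the right edge of Sox5.

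Counted over the 6 genes, Sox9 had an end peak in 11 of 48 gene and library pairs (22.9%), where all genes had 9.98%. At 48 h it was 5 of 24 (20.8%, all genes 7.64%) and at 10 days 6 of 24 (25%, all genes 12.3%). H3K4me3 had 10 of 48 (20.8%, all genes 17.3%), 3 of 24 at 48 h (12.5%, all genes 12.5%) and 7 of 24 at 10 days (29.2%, all genes 22.1%). The Sox9 pairs fell on SoxE in 10 of 24 and on SoxD in 1 of 24, whereas H3K4me3 gave 5 of 24 in each. Sox8, Sox9 and Sox10 each had Sox9 end peaks in 3 or more of 8 libraries, as did 6.32% of all genes. For H3K4me3, Sox5 reached 3 of 8, as did 19.5% of genes, and no member reached 4 of 8, which 7.53% did. These counts describe genes that share libraries and were not tested. With lists brought to equal length by p-value, the Sox9 pairs fell to 1 at 48 h and 0 at 10 days, as they did when only peaks of 2 or more steps were kept. Both settings drop many peaks at any gene, and the share of all genes under them is not given. The fall is therefore not a result about the members. Without 48 h replicate 4 the 48 h count was 2, and without 10-day replicate 3 the 10-day count was 3, each over fewer pairs than the 24 above. In the wider windows Sox9 was present in 38 of 48 pairs (all genes 43.9%), 17 of 24 at 48 h (all genes 35.7%) and 21 of 24 at 10 days (all genes 52%). H3K4me3 was present in 37 of 48 pairs (all genes 59.9%), 17 of 24 at 48 h (all genes 53.5%) and 20 of 24 at 10 days (all genes 66.3%). Sox5 and Sox6, present in every library, are the longest members. Fewer bound cells and less binding per cell cannot be told apart in such lists. No end peak of Sox9 in 8 libraries was the state of Sox5 and Sox6 and of 48.5% of all genes.

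**Figure D3:**
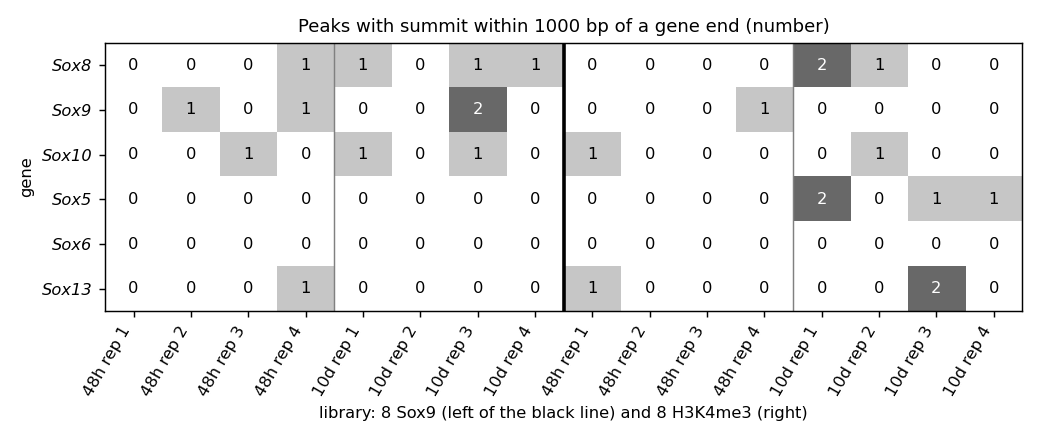
Number of peaks with summit within 1000 bp of an end, for each member (rows) and library (columns), Sox9 libraries left of the black line and H3K4me3 right, 48 h before 10 days. Shaded cells hold 1 or 2 peaks; the Sox9 side is filled mainly in the Sox8, Sox9 and Sox10 rows, with 1 cell in Sox13.

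Per length, the 3 SoxE genes and Sox13 held more Sox9 peaks than the mean over all gene windows and the long SoxD genes fewer. The ratio to all windows (mean ± SD over 8 libraries) was 3.63 ± 2.18 at Sox10, 3.05 ± 3.41 at Sox8, 2.45 ± 3.10 at Sox9 and 2.08 ± 2.46 at Sox13. The order of these 4 was within their spread. Sox5 was at 0.656 ± 0.188 and Sox6 at 0.582 ± 0.202. For H3K4me3 it was 3.18 ± 3.43 at Sox10, 2.08 ± 1.58 at Sox8, 2.08 ± 1.76 at Sox13, 0.491 ± 1.04 at Sox9, 0.834 ± 0.196 at Sox5 and 0.440 ± 0.185 at Sox6. Of all genes 2.84% had a Sox9 density as high as Sox10, 5.58% as high as Sox8 and 10.5% as high as Sox9. When lists were brought to equal length by p-value, the Sox9 density of Sox8 and of Sox9 fell to 0 and those of Sox10 and Sox13 to 1.42 and 1.35, while Sox5 and Sox6 became 1.203 and 1.206. Among 1-step peaks such a filter keeps those with low local background. With peaks of 2 or more steps only, resting on 1 Sox9 peak each, Sox10 was at 14.1 and Sox13 at 4.60. Counted in the gene body alone, the Sox9 ratio was 8.70 at Sox8, 7.40 at Sox9 and 5.43 at Sox10, and the H3K4me3 ratio was 1.79, 1.86 and 6.12 at the same genes. In that order, these ratios rest on 4, 3 and 6 Sox9 peaks and on 1, 1 and 9 H3K4me3 peaks. The median Sox9 fold percentile was 8.54 at Sox8, 24.1 at Sox9, 16.8 at Sox10 and 28.6 at Sox13, resting on 7, 6, 11 and 14 peaks. It was 76.4 at Sox5 and at Sox6 and 41.15 over all gene windows. The peaks of the 4 genes of high density thus tended to lie in higher local background, and those of Sox5 and Sox6 in lower. The part of local background in the densities was not tested.

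**Figure D4:**
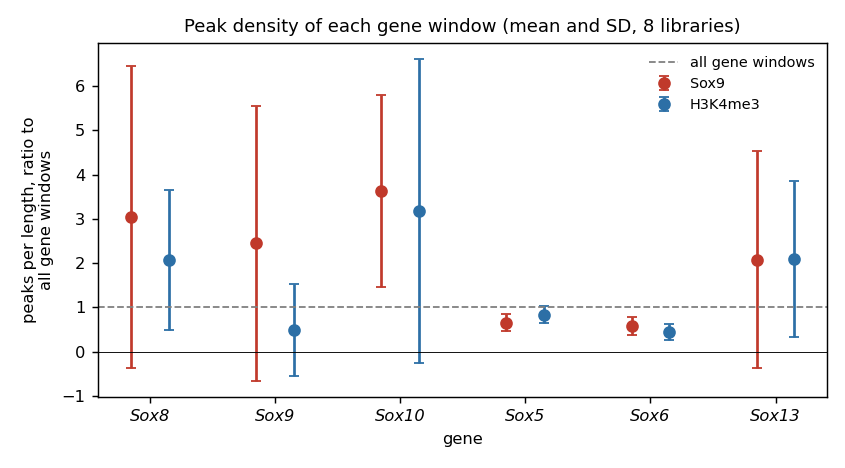
Peaks per length in each member's window as a ratio to all gene windows (dashed line at 1), mean and SD over 8 libraries, Sox9 in red and H3K4me3 in blue. The bars of Sox8, Sox9, Sox10 and Sox13 are wide and overlap for both antibodies, while Sox5 and Sox6 lie below 1.

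No member's share of window peaks passed the test between the times. For Sox9 peaks the largest difference was at Sox6, where 48 h libraries had 2.11 ± 0.55 per 10000 peaks and 10-day libraries 1.31 ± 0.48 (SD, n = 4 each). That is a difference of −0.80 (two-sided exact permutation test, p = 0.0571, Benjamini-Hochberg adjusted p = 1), and the groups overlapped. Sox9 itself went from 0.24 ± 0.29 to 0.38 ± 0.52 (SD, n = 4 each), a difference of 0.14 (exact p = 0.8). Sox10 differed by 0.27 (exact p = 0.343), Sox8 by −0.15 (exact p = 0.657), Sox13 by −0.14 (exact p = 0.914) and Sox5 by 0.04 (exact p = 0.914). The median of the 6 was −0.05 and of all genes tested 0.02. For H3K4me3 the differences ran from −0.32 at Sox6 (exact p = 0.4) to 0.10 at Sox8 (exact p = 0.514). Without 10-day replicate 2 the Sox6 value was −0.04, and without 48 h replicate 1 or 4 the Sox8 value was 0.03. Over all genes 0 of 20538 were called for Sox9 and 0 of 21175 for H3K4me3 after adjustment (percent called 0 in both). At an unadjusted p under 0.05, 0.886% of genes were higher and 0.691% lower at 10 days for Sox9, and 1.24% and 0.77% for H3K4me3. With 4 against 4 libraries the smallest p is 0.0286, so a few genes alone could not pass adjustment over this many.

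**Figure D5:**
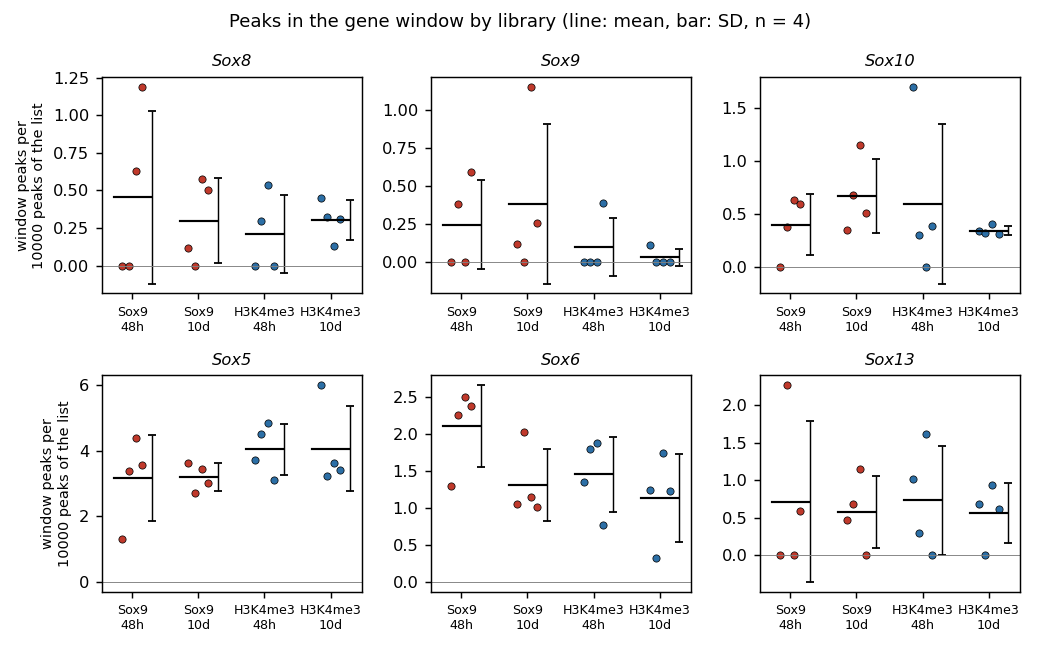
Window peaks per 10000 peaks of the list, 1 panel per gene, by antibody and time; each point is a library, the line the mean and the bar the SD (n = 4). Sox6 is the panel with the widest gap between 48 h and 10 days for Sox9, and the lowest 48 h point lies below the highest 10-day point.

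Between antibodies, the Sox9 gene had 0.31 ± 0.40 Sox9 peaks per 10000 (SD, n = 8) and 0.06 ± 0.14 H3K4me3 peaks (SD, n = 8). The difference of 0.25 did not pass (two-sided exact permutation test of 8 against 8 libraries, p = 0.127, adjusted p = 1), and without 10-day replicate 3 it was 0.12. Sox5 leaned the other way, 3.18 ± 0.90 against 4.05 ± 0.99 (SD, n = 8), a difference of −0.87 (exact p = 0.0850, adjusted p = 0.996). Sox6 differed by 0.41 (exact p = 0.182), or by 1.35 with equal list lengths by p-value (exact p = 0.0362, adjusted p = 0.605). Sox8 differed by 0.12 (exact p = 0.507), Sox10 by 0.07 (exact p = 0.776) and Sox13 by −0.0019 (exact p = 0.995). After adjustment 0 of 21559 genes passed, while 0.96% had more and 3.9% fewer Sox9 than H3K4me3 peaks at an unadjusted p under 0.05. Without 48 h replicate 1 the Sox10 difference was 0.32 (exact p = 0.00408, adjusted p = 0.994); that pellet held the 5 H3K4me3 peaks noted above. The change of the antibody difference with time passed for no member (exact p = 0.429 to 0.943, adjusted p = 1).

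Recurrence between libraries differed among the members. Of their 147 Sox9 peaks 27 (18.4%) overlapped a peak of another library, and 18.5% of Sox9 peaks in all gene windows did. The share was 3 of 6 at Sox9, 4 of 11 at Sox10, 0 of 7 at Sox8, 3 of 14 at Sox13, 12 of 76 at Sox5 and 5 of 33 at Sox6, so that the long genes carry the pooled value. The other library could be of either antibody: 19 of 147 (12.9%) lay in places that also held H3K4me3, against 14.5% over all gene windows. That was so for all 3 at Sox9 and all 4 at Sox10. No shared place at Sox10 held more than 1 Sox9 library. For H3K4me3 it was 44 of 253 (17.4%) against 19.3%, with 9 of 15 at Sox10. Peaks of 2 or more steps made up 4 of 147 (2.72%) for Sox9, against 3.58% over all gene windows, and 14 of 253 (5.53%) for H3K4me3, against 5.46%.

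Beside the relatives, 13 other Sox genes had an end peak in 18.3% of pairs for Sox9 and 36.5% for H3K4me3. Over all genes the shares were 9.98% for Sox9 and 17.3% for H3K4me3, values to set beside each list below. Of these 13 Sox genes, 5 had H3K4me3 at an end in 4 or more of 8 libraries, while none reached 4 of 8 for Sox9. The 4 named by rule were Sox12 in 7 of 8 libraries and Sox11, Sox17 and Sox2 in 4 of 8. Sox12 and Sox11 are SoxC genes, Sox17 directs endoderm and vessels, and Sox2 keeps stem cells. Of the genes that SoxE and SoxD proteins are known to bind elsewhere, 14 cartilage genes had Sox9 at an end in 13.4% of pairs, 9 glial and pigment cell genes in 9.72% and 5 gonad genes in 7.5%. For H3K4me3 the shares were 16.1%, 20.8% and 17.5%, with Mbp, a myelin protein gene, at 4 of 8. For Sox9 the SoxE share of 41.7% stood above each of these lists and the SoxD share of 4.17% below each, without a test. The Sox9 end share was 15% for the active genes, 8.33% for tubule and 6.25% for injured tubule. It was 12.5% for endothelial, 25% for stromal and 0% for immune genes.

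The genes whose window counts per 10000 peaks followed those of a member most closely over the 16 libraries were as follows, by Pearson's r, given as a description because the points share libraries and list length. Sox9 was followed by Vmn1r138 (0.90), Vmn1r254 (0.89) and Tspan1 (0.89). Sox8 was followed by Cd300a (0.88), Catsperb (0.87) and Best3 (0.84), and Sox10 by Nosip (0.96), Vsig10l (0.87) and Etfb (0.86). Sox13 was followed by Scn3a (0.89) and Ptf1a (0.86). For Sox6 they were Gm46913 (0.82), Triap1 (0.81) and Cplx3 (0.80), and for Sox5 Syt12 (0.76), Hpse2 (0.76) and Cbx5 (0.76).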

How the data were processed

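Sorted kidney cells were profiled by CUT&RUN in 24 samples; the 16 antibody libraries were used and the 8 inputs were not analysed here as samples. The submitters' processing notes name MACS3, Bowtie, Bowtie2 and Partek 10, and the build mm10; parameters and depth are not given in the sources used here. Each deposited list gives per peak a score (not used), a fold (the ratio of signal over local background, the authors' value), a −log10 p-value and a −log10 q-value. Fold and p served to solve each peak's height under a Poisson model, tested on simulated data; heights within 0.05 of a whole multiple of the list's step counted as whole.

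Gene positions and promoters came from RefSeq tables of GRCm38.p6, matched by symbol; strand was used for Sox8, Sox5, Sox6 and Sox13. Exons and introns were not used here. Counting per gene used the peaks of chromosomes 1 to 19, X and Y. Groups were compared by two-sided exact permutation over libraries on peaks per 10000, adjusted by the Benjamini-Hochberg method over all protein-coding genes with a peak. Members and lists were chosen with earlier results of these data known. Named were the members, list genes with an end peak in 4 or more of 8 libraries (at most 4, ties by symbol) and the 3 genes of most similar pattern, of which 1 is not reported here. Libraries of 1 pellet were paired by the labels' protocols; their deviations correlated between -0.0053 and 0.0404, and the own partner was the best match for 3 of 8. Alternatives are given in the closing section; those on density were added after the data were seen. At most 13 peaks had the same position in any pair of lists. Tools were SciPy 1.17.1, pandas 2.3.3, NumPy 2.4.6 and Matplotlib 3.10.9 in Python 3.11.15.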

Additional observations from a re-analysis of the deposited data

Results flagged for a closer look

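Window peaks per 10000 peaks of the list were screened for a library far from the other 3 in the 24 sets of 4 libraries (6 genes, 2 antibodies, 2 times); chance alone marks about 1 set in 20. At the Sox9 gene, H3K4me3 at 48 h was 0.387 in replicate 4 and 0 in the other 3. There too, H3K4me3 at 10 days was 0.113 in replicate 1 and 0 in the other 3; each value is a single peak, and a set with 1 library above 0 is always marked, so the chance rate does not hold for these. At Sox5, H3K4me3 at 10 days was 5.99 in replicate 1, the library with the longest list, above the other 3. At Sox6, the Sox9 antibody at 10 days gave 2.03 in replicate 2, the shortest list of that group, above the other 3.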

How the results depend on the processing

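No setting brought any of the 6 genes past the adjusted threshold (exact permutation tests, lowest adjusted p = 0.605, the Sox6 antibody difference of 1.35 with equal list lengths by p, in 274 recomputed differences), and over all genes 0 passed in each setting. Direction held in 219 of the 274, a count that includes differences of exactly 0. Replicate blocks leave a difference unchanged by design, and keeping only peaks with a −log10 q of at least 5 changed it little. The count of 219 is therefore no measure of stability. Reversals numbered 55, of which 34 came from settings that did not leave out a replicate. Differences below are window peaks per 10000 unless named otherwise, and the cause of each reversal was not tested.

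With peaks of 2 or more steps only, the 10-day minus 48 h difference became -4.64 at Sox10 for Sox9 and, for H3K4me3, 0.155 at Sox10, -3.22 at Sox5 and 0.377 at Sox6. The Sox9 minus H3K4me3 difference became -0.188 at Sox8 and Sox6, -0.41 at Sox10 and 1.59 at Sox13. With equal list lengths by p, the time difference for Sox9 became -0.324 at Sox10 and -1.95 at Sox5, and the antibody difference -0.0969 at Sox8, -0.0484 at Sox9, -0.274 at Sox10 and 0.0865 at Sox5. In the body without flanks, the time difference for Sox9 became 0.0796 at Sox8, -0.0989 at Sox9 and -0.12 at Sox10, and the antibody difference -0.0309 at Sox10 and 0.0266 at Sox13.

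As a plain number of peaks, the time difference became 0.25 at Sox8 and 0.75 at Sox6 for Sox9, and 0.25 at Sox10, 2.5 at Sox6 and 1.25 at Sox13 for H3K4me3. The antibody difference became -0.375 at Sox8, -0.5 at Sox10 and -1.88 at Sox6. As presence of a peak (share of libraries), the time difference became 0.25 at Sox8 and Sox13 for Sox9 and 0.25 at Sox10 for H3K4me3, and the antibody difference -0.125 at Sox8. Within 10 days alone the antibody difference was -0.00557 at Sox8 and 0.0145 at Sox13, and within 48 h alone -0.196 at Sox10.

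Pairs of member and library with an end peak were 5 at 48 h and 6 at 10 days for Sox9, and 3 and 7 for H3K4me3. They became 1, 0, 0 and 2 with 2 or more steps. Equal list lengths by p gave 1 at 48 h and 0 at 10 days for Sox9, and 3 and 2 for H3K4me3. With 3000 bp around an end they were 9 at 48 h and 8 at 10 days for Sox9, and 5 and 13 for H3K4me3. The 10-day count thus fell below the 48 h count for Sox9 in each of these settings. For H3K4me3 it did so with equal list lengths. The share of all genes under these settings is not given, so the changes cannot be read as particular to the members. Leaving out 1 replicate, and so its pairs, gave 2 to 5 and 3 to 6 for Sox9 and 1 to 3 and 5 to 6 for H3K4me3. The lowest came without 48 h replicate 4, 10-day replicate 3 and 48 h replicate 1.

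Leaving out 1 replicate also turned 21 differences. For Sox9 over time the ranges were -0.305 to 0.0904 at Sox8, -0.12 to 0.264 at Sox9, -0.577 to 0.451 at Sox5 and -0.378 to 0.376 at Sox13, with 0.111 to 0.378 at Sox10 and -1.07 to -0.668 at Sox6. For H3K4me3 they were -0.101 to 0.0283 at Sox9, -0.45 to 0.114 at Sox10, -0.623 to 0.296 at Sox5, -0.417 to 0.12 at Sox13, -0.542 to -0.0447 at Sox6 and 0.0253 to 0.205 at Sox8. Between antibodies they were -0.0334 to 0.184 at Sox8, -0.0322 to 0.317 at Sox10, -0.283 to 0.228 at Sox13, 0.12 to 0.284 at Sox9, -1.06 to -0.649 at Sox5 and 0.23 to 0.559 at Sox6.

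With the pellet as a replicate block no call changed; the antibody difference of -0.872 at Sox5 had p = 0.0391 and that of 0.249 at Sox9 p = 0.0625 (exact sign flips, both adjusted p = 1). Across times the libraries share only a number, with correlations of -0.012 to 0.0143 for Sox9 and -0.00511 to 0.0251 for H3K4me3, and a replicate block over 4 such pairs cannot reach p under 0.05, so it says nothing about stability. Only peak lists were used, so weaker binding below the authors' threshold cannot be seen.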
